A study of Mus musculus with 6 samples.

Results

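The enzymes described here make serine and pass its carbon into the folate pool. They were 9 genes, Phgdh, Psat1, Psph, Shmt1, Shmt2, Mthfd1, Mthfd2, Mthfd1l and Aldh1l2, taken as every probe set annotated to one of these symbols alone, which gave 22 of the 45037 non-control probe sets of the array, and 9 of its 18193 genes with such a probe set. Of these 22 probe sets, 20 had a Present call on each array of one group or both and were tested, and they covered 8 of the 9 genes. A pair of further Phgdh probe sets, each also annotated to a predicted gene, was left out by that rule.

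The cells were 32D, an interleukin-3-dependent line from the bone marrow of C3H/HeJ mice infected with Friend leukaemia virus. All samples came from this line, 3 of them mock-transduced and labelled MSCVpuro, and 3 transduced with Nup98::Nsd1, a fusion of a nucleoporin gene to a histone methyltransferase gene found in acute myeloid leukaemia. Each sample gave total RNA for 1 Affymetrix mouse genome array, so n = 3 in each group throughout. No treatment or time is given in the labels, nor whether the samples came from separate cultures or clones, so p-values measure the spread between these samples, which may be technical.

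Serine is made from the glycolytic intermediate 3-phosphoglycerate by Phgdh, Psat1 and Psph in turn. A serine hydroxymethyltransferase then splits serine into glycine and a carbon unit carried by tetrahydrofolate, in the cytosol (Shmt1) or in mitochondria (Shmt2). Mitochondrial Mthfd2 and Mthfd1l carry that unit on to formate, which cytosolic Mthfd1 takes up again for purine and thymidylate synthesis, while Aldh1l2 oxidises the mitochondrial formyl unit to carbon dioxide. In proliferating cells the mitochondrial route is the usual source of formate. The transcription factor ATF4 is a known inducer of several genes of this pathway.

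The 2% trimmed mean of the deposited signals was 500.003 on each array. The share of probe sets called Present was 45.1% to 45.9% on the mock and 47.6% to 48.2% on the Nup98::Nsd1 arrays. The Actb and Gapdh control probe sets read RNA integrity and labelling. The Actb 3'/5' ratio was 1.148 to 1.202 on the mock and 1.451 to 1.5 on the Nup98::Nsd1 arrays. That of Gapdh was 0.742 to 0.77 on the mock and 0.799 to 0.843 on the Nup98::Nsd1 arrays. The part of these ratios in the results below was not tested. Of 12 markers of myeloid progenitors, 10 were Present on all mock arrays and 9 on all Nup98::Nsd1 arrays. Kit and Cd34 were Present on none of the 6 arrays. The summed signal of these 12 markers was 63092 to 67117 on the mock and 40323 to 41354 on the Nup98::Nsd1 arrays. This sum was led by granule protein and other bright genes. Of these, Mpo went from a mean of 19095 to 5183, Ms4a3 from 12826 to 2502 and Prtn3 from 9202 to 4878. Ctsg, likewise bright, had means of 10454 on the mock and 10821 on the Nup98::Nsd1 arrays and was not called. By gene the list was divided, with a median log2 fold change of 0.11. Of its 10 tested markers 5 were called higher (Ptprc, Spi1, Cebpa, Csf2rb and Il3ra) and 4 lower. Among all tested genes, 42.9% were called higher and 29.5% lower. Of the markers of B lymphocytes, T lymphocytes and fibroblasts, 4 of each, 0 were Present on all arrays of a group, and each sum lay between 68.8 and 194. Of 4 erythroid markers, Epor and Klf1 were Present on all mock arrays, and their list summed to 497 to 542 on mock and 399 to 404 on Nup98::Nsd1 arrays. In such bulk samples, fewer cells of a type and less RNA per cell cannot be told apart.

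The serine and one-carbon enzymes did not move as a block. Phgdh, the first enzyme of serine synthesis, and the mitochondrial enzyme Mthfd2 rose in Nup98::Nsd1 cells. Mitochondrial Shmt2 was also called higher, but only its brightest probe set kept that call under every scaling. The cytosolic enzymes Shmt1 and Mthfd1 fell, and so did Psph, the last step of serine synthesis, and Mthfd1l, the mitochondrial formate-producing synthetase. Psat1, the step between Phgdh and Psph, was called lower at 1 probe set and higher at the other. Only its lower call was kept under every scaling. Aldh1l2 was not detected well enough to be tested. Of the 20 tested probe sets 10 were called higher and 10 lower at an adjusted p of 0.05 in limma, where 42.3% of all 20494 tested probe sets were called higher and 27.6% lower, 69.9% in all. A change of at least 2-fold was called higher at 1 and lower at 4 of the 20, against 12.8% and 3.13% of all tested probe sets. The groups of arrays did not overlap at any of the 20, a separation seen at 73.2% of all tested probe sets. Whether these shares differ from those of all probe sets was not tested.

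**Figure D1:**
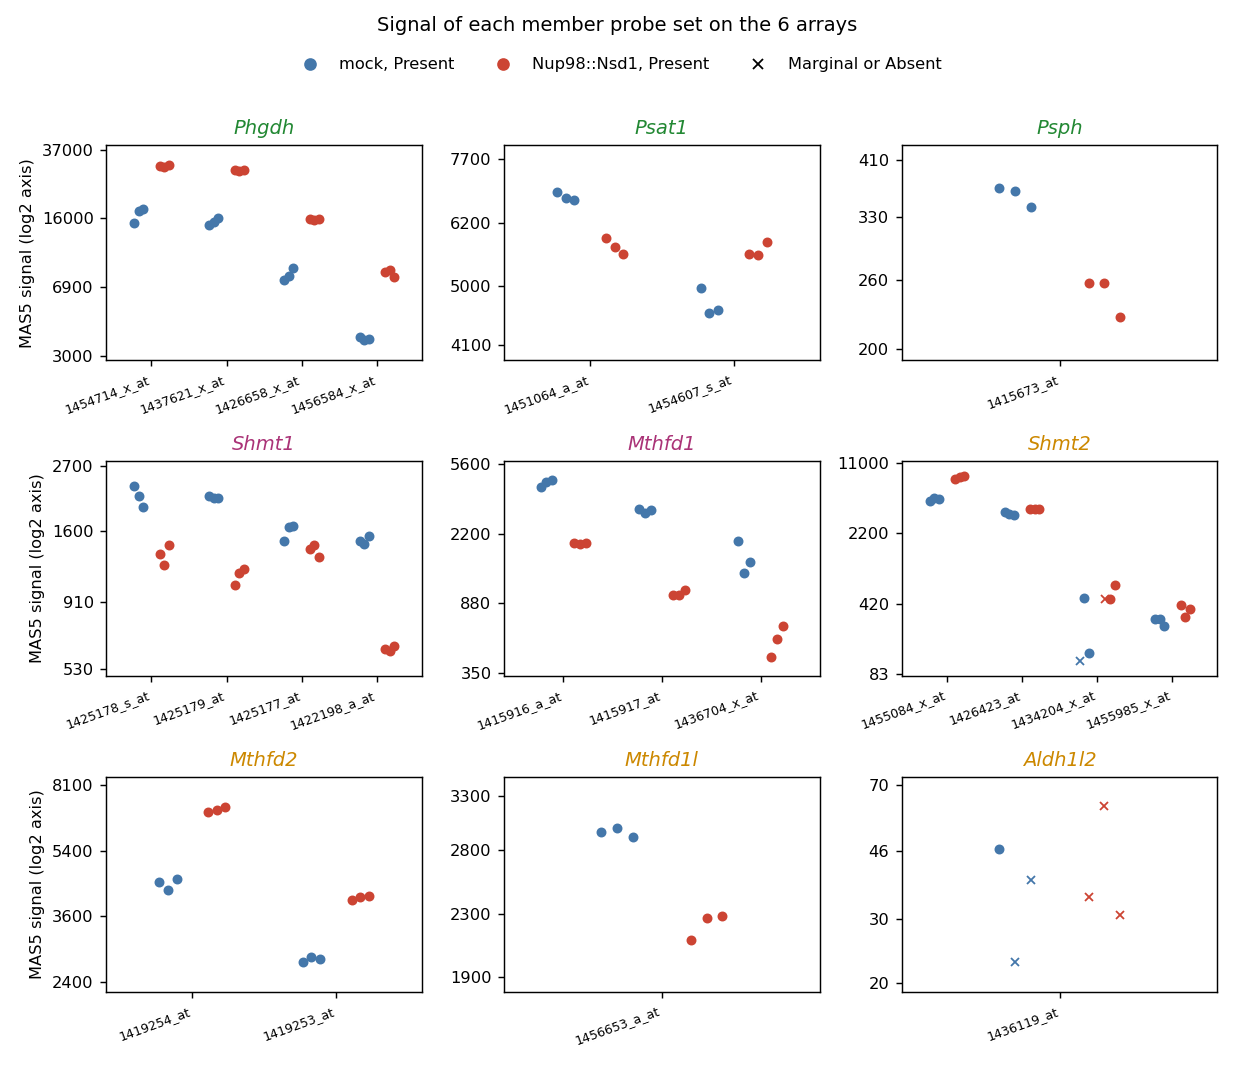
Deposited MAS5 signal (log2 axis, arbitrary units, a scale of its own in each panel) of each of the 22 probe sets on the 3 mock and 3 Nup98::Nsd1 arrays, with crosses for signals called Marginal or Absent. Title colours mark serine synthesis (green), cytosolic enzymes (purple) and mitochondrial enzymes (orange), and the groups lie apart at each probe set except 1434204_x_at of Shmt2 and the single probe set of Aldh1l2.

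Promoter sequences were held by the RefSeq table (build GRCm38.p6, 250 bases before to 50 after the start of a transcript) for 8 of the 9 genes. They are shown for Phgdh, the largest rise among the genes with the deposited signals (after quantile normalization it was 0.73, below Shmt2 at 0.86 and Mthfd2 at 0.79), Mthfd1, the largest fall under each of the 5 scalings, and Mthfd2, the mitochondrial counterpart of Mthfd1 that moved the other way. Capitals mark CCAAT or its complement ATTGG, the box bound by NF-Y, and GGGCGG or its complement CCGCCC, the GC box bound by Sp1.
Phgdh, chr3:98339920-98340219, minus strand: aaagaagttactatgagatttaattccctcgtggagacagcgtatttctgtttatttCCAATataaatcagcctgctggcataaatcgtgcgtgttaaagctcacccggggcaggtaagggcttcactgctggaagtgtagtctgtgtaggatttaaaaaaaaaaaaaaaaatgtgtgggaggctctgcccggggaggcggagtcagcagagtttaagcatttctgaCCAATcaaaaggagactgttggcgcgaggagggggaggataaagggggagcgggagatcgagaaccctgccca
Mthfd1, chr12:76254982-76255281, plus strand: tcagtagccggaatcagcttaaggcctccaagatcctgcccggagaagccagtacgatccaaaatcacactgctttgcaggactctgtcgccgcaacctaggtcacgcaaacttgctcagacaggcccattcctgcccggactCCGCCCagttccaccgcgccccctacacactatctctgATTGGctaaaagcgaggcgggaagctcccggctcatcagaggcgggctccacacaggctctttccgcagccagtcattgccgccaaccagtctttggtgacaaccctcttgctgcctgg
Mthfd2, chr6:83317555-83317854, minus strand: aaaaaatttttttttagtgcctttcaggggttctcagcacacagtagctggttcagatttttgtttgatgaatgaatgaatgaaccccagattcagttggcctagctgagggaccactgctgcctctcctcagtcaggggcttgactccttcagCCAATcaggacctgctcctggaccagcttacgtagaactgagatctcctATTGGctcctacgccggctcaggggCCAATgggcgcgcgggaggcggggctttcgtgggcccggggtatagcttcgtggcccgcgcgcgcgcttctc

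A CCAAT box was found in a promoter of 6 of these 8 genes, against 41.1% of the 27025 genes in the table, and a GC box in 5 of 8, against 38.2%. The Mthfd2 window held 3 CCAAT boxes, beginning 96, 47 and 22 bases before the start, and that of Phgdh 2, at 193 and 23 bases before it. The Mthfd1 window held 1 CCAAT box, 69 bases before the start, and 1 GC box, 107 bases before it. CCAAT boxes were thus found beside genes that rose and genes that fell. Searches for TGATGNAA, the core of the composite element bound by C/EBP and ATF factors, and for the E-box CACGTG found 0 matches on either strand in the 8 genes, letters that 4.51% and 8.09% of all genes hold in this window. A match or its absence in 300 bases is a description of letters only.

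**Figure D2:**
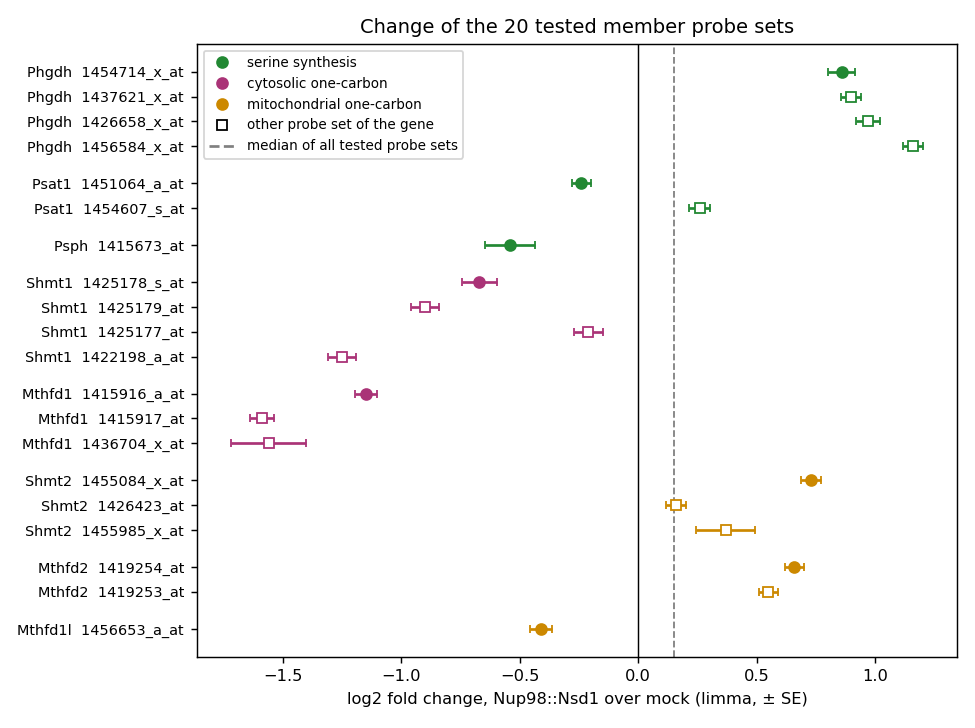
Log2 fold change of Nup98::Nsd1 over mock (limma estimate ± SE, 3 arrays per group) of the 20 tested probe sets, with filled circles for the brightest probe set of each gene. Each Phgdh, Shmt2 and Mthfd2 probe set lies to the right of 0 and each Shmt1 and Mthfd1 probe set to the left, Psat1 has one on either side, and the dashed line is the median of all tested probe sets, 0.15.

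Among the enzymes of serine synthesis, Phgdh rose at all 4 of its probe sets. The names of all 4 end in _x_at, and whether their probes also read other transcripts was not tested. The brightest, 1454714_x_at, gave signals of 15130.4, 17526 and 17864 on the mock arrays and of 30537, 29968 and 30656 on the Nup98::Nsd1 arrays. Every Nup98::Nsd1 array lay above every mock array, by a fold of 1.81 between the groups (log2 fold change 0.86, SE 0.0578, limma adjusted p = 1.32e-07). The dimmest, 1456584_x_at, gave 3749.8, 3621 and 3691 on the mock and 8328, 8508 and 7875 on the Nup98::Nsd1 arrays, a rise of 2.23-fold (log2 fold change 1.16, SE 0.0425, adjusted p = 1.34e-09). The other 2 rose by 0.90 and 0.97 on the log2 scale. In order of mock signal, from 16840.0 through 15448 and 8083 to 3687, the log2 fold changes were 0.86, 0.90, 0.97 and 1.16, so the dimmer the probe set the larger was the estimate. The 2 probe sets shared with predicted genes, at mock means of 8647 and 4443, had log2 fold changes of 0.99 and 1.13. The highest signal of any probe set was 35111 to 39502 on the mock and 46052 to 47554 on the Nup98::Nsd1 arrays, and the part of signal level in these estimates was not tested. Of all tested genes, 13.2% had a rise as large as that of the brightest Phgdh probe set.

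Psat1, the aminotransferase that makes phosphoserine, gave no single direction. At 1451064_a_at, the brighter, the signals were 6875, 6735 and 6698 on the mock and 5896, 5711 and 5581 on the Nup98::Nsd1 arrays, a fall (log2 fold change -0.24, SE 0.0393, adjusted p = 0.000187). At 1454607_s_at they were 4971, 4563 and 4612 on the mock and 5582, 5560.5 and 5807 on the Nup98::Nsd1 arrays, a rise (log2 fold change 0.26, SE 0.0452, adjusted p = 0.000284). Both sets of arrays were fully separated, in opposite senses. Averaged over the 2 probe sets, the Psat1 change was 0.01 on the log2 scale (limma adjusted p = 0.801). The rise at 1454607_s_at kept its call after quantile normalization (0.40). It lost that call when the arrays were centred on their 75th percentile (0.07) or their median (0.09). Scaling to the hybridization controls gave -0.10, which was not past the threshold either. The fall at 1451064_a_at held under each scaling and was -0.09 (adjusted p = 0.0484) after quantile normalization. Calls in both directions were seen in 12.7% of the 4711 genes with several tested probe sets.

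Psph, the phosphatase that releases serine, had 1 dim probe set. It gave 368, 364 and 343 on the mock arrays and 257, 257 and 226 on the Nup98::Nsd1 arrays. The groups did not overlap and the level was 1.46-fold lower in Nup98::Nsd1 cells (log2 fold change -0.54, SE 0.106, adjusted p = 0.00072). The first and the last step of the same linear pathway were thus called in opposite directions.

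Both cytosolic enzymes fell at every probe set. For Shmt1, which makes glycine and a folate-bound carbon unit from serine in the cytosol, the brightest probe set, 1425178_s_at, gave 2289, 2119 and 1945 on the mock and 1331, 1226 and 1438 on the Nup98::Nsd1 arrays (log2 fold change -0.67, SE 0.0725, adjusted p = 6.84e-06). At 1422198_a_at the signals were 1479.8, 1448 and 1544 on the mock and 626, 616 and 639.9 on the Nup98::Nsd1 arrays (log2 fold change -1.25, SE 0.0579, adjusted p = 6.98e-09). At 1425177_at they were 1485, 1652 and 1662 against 1391, 1438 and 1306, where the groups were only just apart (log2 fold change -0.21, SE 0.0616, adjusted p = 0.00858). The remaining probe set stood at -0.90. The sign of the change was therefore the same at the 4 probe sets, and its size ranged from 1.16-fold to 2.38-fold.

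Mthfd1, the cytosolic enzyme that joins formate to tetrahydrofolate and interconverts the carbon units, had the largest change of the 8 genes. Its brightest probe set, 1415916_a_at, gave 4111, 4384 and 4513 on the mock and 1958, 1926 and 1974 on the Nup98::Nsd1 arrays. The level was 2.22-fold lower (log2 fold change -1.15, SE 0.0469, adjusted p = 2.75e-09), and 1.46% of tested genes had a fall of this size or more. At 1415917_at the signals went from 3071, 2936 and 3034 to 981, 980 and 1051, or 3.0-fold lower (log2 fold change -1.59, SE 0.0504). The third, 1436704_x_at, varied most between replicates, at 2001, 1309 and 1534 on the mock and 433, 551 and 655 on the Nup98::Nsd1 arrays, and had a log2 fold change of -1.56 with an SE of 0.158. The groups were well apart at each of the 3. Likeness to Mthfd1 was read as the root mean square difference of the 6 centred log2 signals. By it the 5 closest tested genes were Ppat (0.0338), Fam241a (0.0345), Heatr3 (0.0391), Nme1 (0.0394) and Tuba8 (0.0409). Their log2 fold changes lay between -1.19 and -1.1, a nearness to Mthfd1 that follows from how they were picked. Whether they are regulated together with Mthfd1 was not tested.

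The mitochondrial enzymes were divided. Shmt2, the mitochondrial serine hydroxymethyltransferase, gave 4623, 4894 and 4848 on the mock and 7723, 7951 and 8175 on the Nup98::Nsd1 arrays at its brightest probe set, 1455084_x_at, a rise of 1.66-fold (log2 fold change 0.73, SE 0.0418, adjusted p = 3.46e-08). At 1426423_at the signals were 3526, 3402 and 3338 on the mock and 3847, 3842 and 3811 on the Nup98::Nsd1 arrays. That rise was small (log2 fold change 0.16, SE 0.041, adjusted p = 0.00369), close to the median of all tested probe sets, and turned to -0.03, -0.01 and -0.19 under 75th percentile, median and hybridization control scaling in turn. The dim probe set 1455985_x_at gave 294, 297 and 249.9 against 408, 313 and 373 (log2 fold change 0.37, SE 0.125, adjusted p = 0.019), and was not called without mock replicate 3 (0.29), without Nup98::Nsd1 replicate 1 (0.29), without Nup98::Nsd1 replicate 3 (0.35) or under the other 4 scalings (0.02 to 0.21). The fourth, 1434204_x_at, was not tested: its signals were 112, 483 and 136 on the mock and 477, 476 and 653 on the Nup98::Nsd1 arrays, and the groups overlapped. The rise of Shmt2 as a gene rests on the brightest probe set in all scalings, since none of the others kept its call in all of them. The name of that probe set ends in _x_at, and whether its probes also read other transcripts was not tested.

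Mthfd2, the mitochondrial dehydrogenase and cyclohydrolase, rose at both probe sets. At 1419254_at the signals were 4450, 4228 and 4547 on the mock and 6879, 6955 and 7090.5 on the Nup98::Nsd1 arrays, 1.58-fold higher (log2 fold change 0.66, SE 0.0418, adjusted p = 7.57e-08). At 1419253_at they were 2716, 2805 and 2759 against 3990.2, 4054 and 4088 (log2 fold change 0.55, SE 0.0402, adjusted p = 2.53e-07). The 2 estimates differed by little and the groups were far apart at each.

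Mthfd1l, the mitochondrial synthetase that releases formate, fell. Its single probe set gave 2955, 2988 and 2907 on the mock and 2124, 2275 and 2287 on the Nup98::Nsd1 arrays, 1.32-fold lower (log2 fold change -0.41, SE 0.0462, adjusted p = 1.04e-05). Aldh1l2 gave 46.8, 22.8 and 38.3 on the mock and 34.4, 61.1 and 30.7 on the Nup98::Nsd1 arrays, with 1 signal called Present, on mock replicate 1. The groups overlapped and no comparison was made for it.

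**Figure D3:**
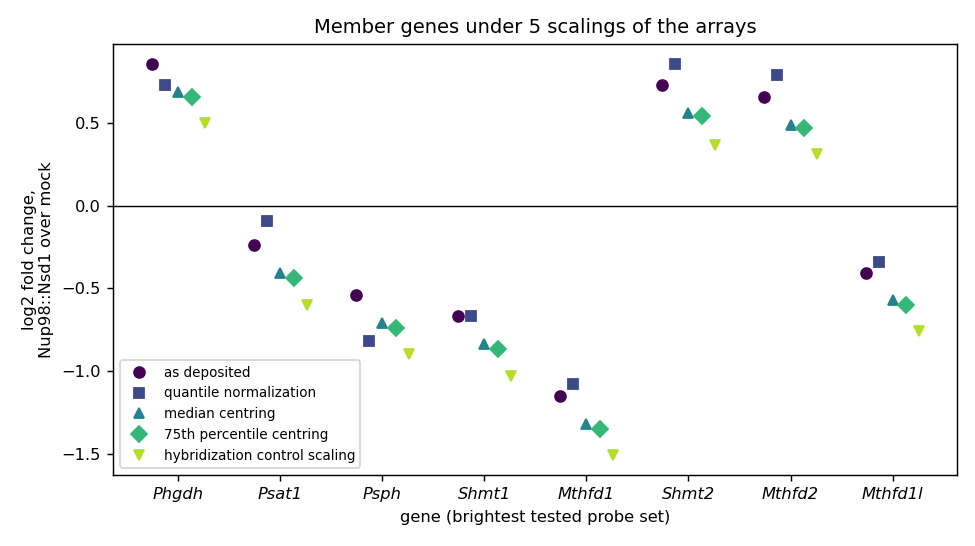
Log2 fold change of Nup98::Nsd1 over mock of the 8 tested genes, at the brightest probe set of each, with the signals as deposited and under 4 other scalings of the arrays. The scalings shift the values, and Phgdh, Shmt2 and Mthfd2 stay above 0 and the other 5 below it in all 5.

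The scale of the arrays mattered for sizes more than for signs. At the brightest probe sets, 3 genes rose and 5 fell with the deposited signals and under each of the 4 other scalings. With hybridization control scaling, which moved the median of all tested probe sets from 0.15 to -0.21, the rises shrank to 0.50 for Phgdh, 0.37 for Shmt2 and 0.31 for Mthfd2, and the fall of Mthfd1 grew to -1.51. The median log2 fold change of the 8 genes was -0.32, against 0.12 for all 9641 tested genes, of which 42.9% were called higher and 29.5% lower, 72.3% in all. Mthfd1 was the 1 gene of the 8 called lower by at least 2-fold and 0 were called higher by that much, against 2.6% and 9.53% of all tested genes.

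Ratios of 2 enzymes within an array do not depend on a factor applied to a whole array, so 5 pairs were compared in this way: Psat1 and Psph each with Phgdh, Shmt2 with Shmt1, and Mthfd1l and Mthfd2 each with Mthfd1. Relative to the mean of the mock arrays, the log2 ratio of Mthfd2 to Mthfd1 was 0.09, -0.08 and -0.01 on the mock and 1.79, 1.83 and 1.82 on the Nup98::Nsd1 arrays, a difference of 1.81 (SE 0.0501) or 3.51-fold. That of mitochondrial Shmt2 to cytosolic Shmt1 was -0.17, 0.03 and 0.14 on the mock and 1.36, 1.52 and 1.33 on the Nup98::Nsd1 arrays, a difference of 1.40 (SE 0.106). Over all 12 combinations of their tested probe sets this difference ran from 0.38 to 1.98, and it was positive in all 12. The ratio of Mthfd1l to Mthfd1 was higher by 0.74 (SE 0.0589) although both genes fell, Mthfd1l by less.

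In serine synthesis both ratios to Phgdh were lower on the Nup98::Nsd1 arrays. The log2 ratio of Psat1 to Phgdh differed by -1.10 (SE 0.0908), and by -1.40 to -0.59 over the 8 combinations of probe sets, so it was below 0 whichever Psat1 probe set was read. The ratio of Psph to Phgdh differed by -1.40 (SE 0.121). The arrays of the groups were separated in each of the 5 pairs. An exact two-sided permutation test over the 20 assignments gave p = 0.1 for each pair (0.1 after Benjamini-Hochberg adjustment over the 5), the smallest value that 3 arrays against 3 allow.

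**Figure D4:**
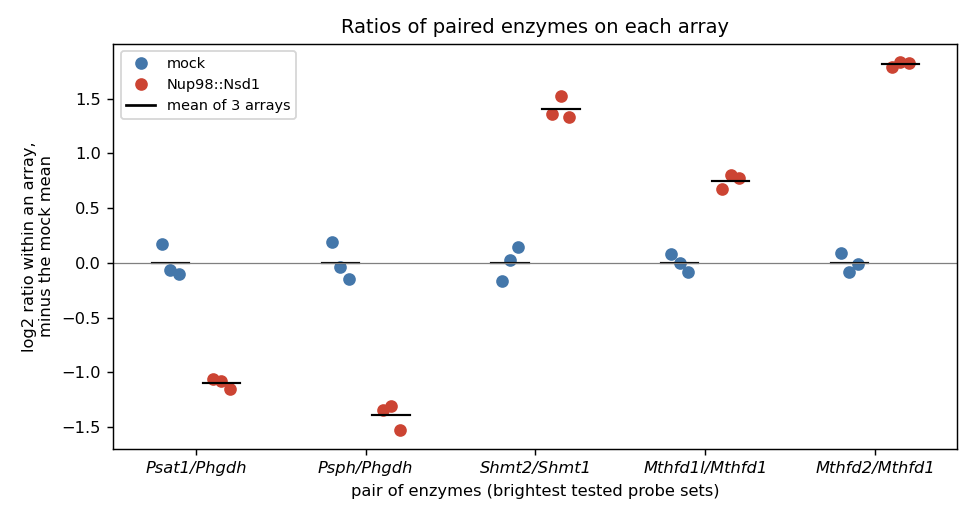
Log2 ratio of the signals of 2 enzymes on each array, minus the mean of that ratio on the mock arrays, for 5 pairs at their brightest probe sets, with bars for the mean of 3 arrays. The Nup98::Nsd1 arrays lie between -1.53 and -1.06 for the pairs with Phgdh and between 0.67 and 1.83 for the other 3 pairs, away from the mock arrays around 0.

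The genes around these enzymes were read from 8 lists, each gene at its brightest tested probe set. Read in this way, 42.9% of all tested genes were called higher and 29.5% lower. Whether any list differs from these shares was not tested. Transporters of serine and glycine were mostly higher: of 8 tested of 10 listed, 7 rose and 0 fell, with a median log2 fold change of 0.74. The glycine transporter Slc6a9 went from 445 ± 18.6 to 1259 ± 215 (mean ± SD, a limma log2 fold change of 1.49 at an adjusted p = 2.03e-07). The neutral amino acid transporter Slc38a2 went from 5121 ± 127 to 8632 ± 382 (0.75). Its other probe sets were at 0.82 and 0.35, the latter not called. Slc1a5, another neutral amino acid carrier, went from 259 ± 12.8 to 427 ± 14.7 (0.72). Sfxn3, a sideroflexin of the mitochondrial membrane, went from 413 ± 11.9 to 707 ± 26.8 (0.78). Slc38a1, the tested transporter without a call, was called lower at its other probe set (-0.36). With median centring, 75th percentile centring or probe sets averaged per gene, 1 transporter was called lower. On the hybridization control scale, 5 of the tested transporters rose and 2 fell.

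The list of ATF4 and genes it is known to induce rose with few exceptions: of 17 tested of 19 listed, 16 rose and 0 fell, with a median of 0.85, and 14 rose and 0 fell with hybridization control scaling. One of the 16, the stress protein gene Sesn2, was Present on 0 mock and 3 Nup98::Nsd1 arrays and so entered the test only through the group where it was high, and 15 rose among genes Present on all 6 arrays. The 4 with the smallest p were Ddit3, the stress factor CHOP, at 425 ± 24.6 and 6752 ± 85.1 (log2 fold change 3.99, adjusted p = 1.73e-12, and 1.32 at its other probe set), Trib3, a pseudokinase, at 3.95, Nupr1, a stress-induced chromatin protein, at 3.68, and the transcription factor Atf5 at 2.86. Atf4 itself went from 9317 ± 599 to 14829 ± 250.1 (0.67). Of the enzymes described above, Phgdh, Shmt2 and Mthfd2 were also called higher, while Psph (-0.54), Mthfd1l (-0.41), Shmt1 (-0.67) and Mthfd1 (-1.15) were called lower and Psat1 was called both ways. The level of ATF4 protein was not measured.

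Purine and thymidylate synthesis, which consumes the carbon units, was mostly lower: of 11 tested of 12 listed, 8 fell and 2 rose, with a median of -0.62. Ppat, the first committed enzyme of purine synthesis, went from 3147 ± 106 to 1414 ± 46.8 (a limma log2 fold change of -1.15 at an adjusted p = 3.59e-09). Gart and Pfas, later steps of which Gart uses formyl-tetrahydrofolate, stood at -1.08 and -1.01, and Gmps, which makes GMP, at -0.74, although its 2 other probe sets were at -0.28 and 0.28, the latter not called. Prps1, which makes the ribose donor, and the thymidylate synthase Tyms rose by 0.26 and 0.75 on the log2 scale, the other tested Tyms probe set being at 0.05 and not called. Under hybridization control scaling 0 rose and 9 fell in this list.

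Folate transport and other folate enzymes gave 4 falls and 1 rise among 9 tested of 15 listed, with a median of -0.07. Slc25a32, which carries folate into mitochondria, went from 965 ± 81.4 to 382 ± 46.1 (a limma log2 fold change of -1.34 at an adjusted p = 3.19e-07), the plasma membrane folate carrier Slc19a1 from 832 ± 36.4 to 494 ± 40.5 (-0.76), and Fpgs, which retains folate in the cell by adding glutamates, from 716 ± 20.8 to 474 ± 71.3 (-0.60). Mthfs, which returns formyl-folate to the active pool, was the single rise, from 238 ± 37.5 to 544 ± 29.9 (1.21). On the hybridization control scale, 7 fell and 1 rose.

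Glycolytic enzymes around 3-phosphoglycerate, the substrate of Phgdh, were lower in 6 of 6 tested genes of 8 listed, under each scaling as well, with a median of -0.53. Pgam1, the mutase that draws on 3-phosphoglycerate, went from 11491 ± 505 to 4429.8 ± 158 (a limma log2 fold change of -1.37 at an adjusted p = 7.48e-10), Ldha from 16456 ± 983 to 11240.3 ± 273 (-0.55), the pyruvate kinase Pkm stood at -0.52 and the triose isomerase Tpi1 at -0.42. Hence Phgdh rose while the neighbouring enzyme on the same substrate fell.

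The other lists had calls in both directions. Among other serine and glycine enzymes, 2 of 5 tested genes of 14 listed fell and 1 rose, with a median of -0.13. The glycine cleavage proteins Gcsh and Dld stood at -0.64 and -0.38, and Gldc, the decarboxylase of that system, was Present on no array. Serinc3, a membrane protein of the serine incorporator family, was at 0.22 at its brightest probe set was called higher at 1 other and lower at 3, and with hybridization control scaling it was at -0.14, when 5 of the list fell and 0 rose. In the methionine cycle, 3 of 7 tested genes of 10 listed fell and 2 rose, with a median of -0.01. Mtap (-0.62), Mat2b (-0.46) and Ahcy (-0.45) fell. Ahcyl1 (0.58), an Ahcy-like protein, and the methionine synthase Mtr (0.30) rose. However, Mtr was called lower at its other tested probe set (-0.42). The other Ahcyl1 probe sets were at 0.24, called higher, and 0.05, not called. With hybridization control scaling, 5 methionine cycle genes fell and 1 rose.

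Of 11 tested genes of 12 listed for other factors known to act on the pathway, 3 rose and 3 fell, with a median of 0.09, and with hybridization control scaling 1 rose and 7 fell. Mycn, a MYC family factor, went from 17021 ± 330.1 to 3874 ± 116 at its brightest probe set (a limma log2 fold change of -2.14 at an adjusted p = 1.81e-11) but was called higher at its 2 others, at 0.70 and 0.58. Nfyb, a subunit of the CCAAT-binding NF-Y, fell by 0.64 on the log2 scale. Nfe2l2, the oxidative stress factor NRF2, and the kinase Mtor rose by 0.41 and 0.60. With hybridization control scaling the Nfe2l2 value was 0.06 and not called. The other tested Nfe2l2 probe set was called higher with the deposited signals, at 1.99. Myc was at 0.06 (adjusted p = 0.275), and Sp1 at -0.05 (adjusted p = 0.393), with its 2 other probe sets called in opposite directions at 0.47 and -0.54.

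**Figure D5:**
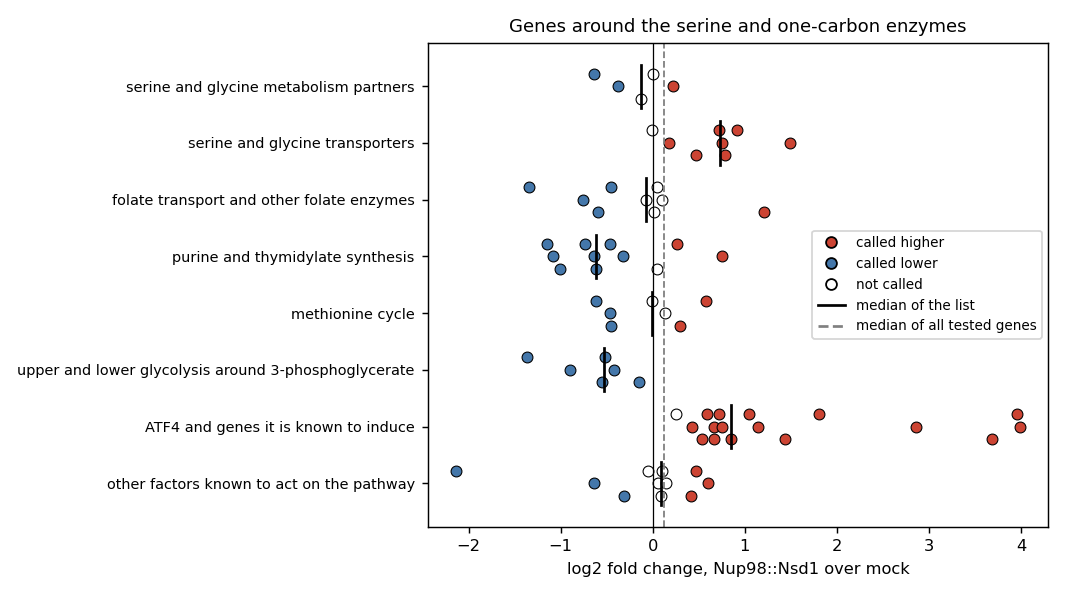
Log2 fold change of Nup98::Nsd1 over mock of the tested genes of 8 lists, at the brightest tested probe set of each gene, with vertical bars for the median of each list and a dashed line for that of all tested genes, 0.12. The ATF4 list and the transporters lie to the right, with medians of 0.85 and 0.74, and the purine and glycolysis lists to the left, at -0.62 and -0.53.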

How the data were processed

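RNA of 3 mock and 3 Nup98::Nsd1 samples was measured on 1 array each. Per the file headers, the authors deposited a MAS5 signal, a scaled intensity on a linear scale, with a detection p-value and call; for MAS5, named in the submitters' processing notes, version and scaling target are not given in the sources used. The deposited matrix held the same values (largest relative difference 5.0e-06) and served as an alternative.

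Probe sets were named through the platform annotation of 2016, updated by Entrez ID: 34945 of 45037 had 1 symbol, 932 several and 9160 none. Signals under 1 were set to 1 and taken to log2. Probe sets with a Present call on each array of one group or both (20494) were fitted with limma 3.58.1 in R 4.3.3, with an intensity trend, Benjamini-Hochberg adjustment over all of them and a threshold of 0.05. A gene was represented by its brightest tested probe set. Pairs were tested with scipy 1.17.1. The fit was tested on simulated data in which few probe sets changed and no array was shifted in scale. That test does not bear on the choice of scaling.

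The members, lists and tests were chosen with earlier results of these data known. All members are named, and in each list the 4 called genes with the smallest p. Atf4, Myc, Sp1, Prps1, Tyms, Mtr, Gldc, Sesn2, Slc38a1 and the cell type markers were named after their values were seen. The CCAAT and GC boxes were searched after the first motifs gave no match. Aldh1l2 has no promoter shown. Same-numbered arrays did not deviate together (correlations of -0.017, -0.011 and 0.021). Alternatives were the pseudocount, the detection filter, 4 scalings, the matrix, the variance model, array weights, a replicate block, probe sets averaged per gene and each array left out.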

Additional observations from a re-analysis of the deposited data

How the results depend on the processing

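At the brightest probe set, each of the 8 genes kept its direction and its call under every alternative run except one: Psat1 stood at 0.01 (adjusted p = 0.801) with its probe sets averaged, which go in opposite directions. Counts over all probe sets moved with hybridization control scaling, from 8678 higher and 5657 lower to 4641 higher and 9483 lower, and genes of the 8 lists called lower went from 26 to 41. The share of calls that were higher, 60.5% as deposited, was 49.7% (quantile), 44.8% (75th percentile), 47.1% (median) and 32.9% (hybridization controls) under the other scalings. With the replicate number as a block the log2 fold changes were the same, which a balanced design of this kind fixes in advance. In that fit 3 member genes were called higher and 5 lower, and 8628 probe sets were called higher and 5629 lower. The replicate numbers do not pair the samples. Further reversed values were -0.10 for Psat1 1454607_s_at with hybridization control scaling; -0.03, -0.01 and -0.19 for Shmt2 1426423_at under the 75th percentile, median and hybridization control scalings in turn; and -0.14 and -0.07 for Serinc3 with hybridization control scaling and with its probe sets averaged. Leaving out 1 array changed no call of the 8 member genes at their brightest probe sets and moved the Mthfd1 value between -1.19 and -1.12; among the lists, 3 instead of 2 methionine cycle genes were called higher without Nup98::Nsd1 replicate 1. The pair tests cannot pass 0.05 at this size. Precision is limited by having 3 arrays a group, and the SE was largest at Mthfd1 1436704_x_at (0.158) and Shmt2 1455985_x_at (0.125).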
